A study of Mus musculus with 12 samples.

Results

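Tnmd encodes tenomodulin, and it was taken as the row of that symbol in the deposited expression table, 1 of 15671 genes listed there. The Scx-bound regions (ChIP-seq peaks) within 500 kb of its start were taken with it, 2 of 12097 regions. Gene expression was measured by RNA-seq in Scx-GFP+ cells sorted from forelimbs of E15.5 mouse embryos, 3 samples of control littermates and 3 of Scx-/- embryos. All of them carried the Scx-GFP transgene, a green fluorescent reporter that marks tendon cells, and came from crosses of Scx+/-; Scx-GFP mice on a background outcrossed to CD-1. The Scx-/- allele, called Scx null here, is a knockout of the KOMP resource in which a lacZ cassette takes the place of the coding sequence of Scx. The series text calls the controls wildtype, whereas the paper speaks of control littermates and lists Scx+/- embryos among those sorted, so heterozygotes among the controls cannot be told apart from wildtype. Binding of Scx was measured by ChIP-seq with an anti-FLAG antibody in forelimbs of E13.5 ScxFlag/Flag embryos, whose endogenous Scx protein carries 2 FLAG epitopes at its carboxy terminus. Each of the 3 ChIP samples and 3 input samples held pooled forelimbs of several embryos, so binding was read in whole limb tissue of an earlier stage than expression.

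Tenomodulin is a transmembrane glycoprotein of tendon and ligament cells whose outer end holds a BRICHOS domain and a cysteine-rich domain, and it is widely used as a marker of differentiated tenocytes. Scx (scleraxis) is a bHLH transcription factor that is made in tendon progenitors and tenocytes, and it binds short DNA elements of the form CANNTG, called E-boxes. In mice, loss of Scx disrupts the force-transmitting tendons, whereas loss of Tnmd mainly affects the proliferation of tenocytes and the structure of the collagen fibrils.

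Tnmd (ENSMUSG00000031250.8 in GENCODE M21) lies on the plus strand of chromosome X of mm10, at chrX:133850980-133865577. Its single annotated transcript has 7 exons with 1353 bp in all, and its coding sequence of 951 bp without the stop codon gives 317 residues. Coding begins at base 133851207 in exon 1, which holds 48 coding bp, and ends in exon 7. The 2 peaks lie upstream of the gene in the intergenic stretch between Tnmd and the next gene on that side, Pcdh19, and overlap no annotated gene. Their reference sequences are shown because they are the bound regions themselves, and capitals mark every match to an E-box (CANNTG). Peak A is chrX:133760299-133760498, with its center 90582 bp before the Tnmd start, and peak B is chrX:133830139-133830338, with its center 20742 bp before it, both read on the plus strand of GRCm38.p6 from RefSeq.
Peak A: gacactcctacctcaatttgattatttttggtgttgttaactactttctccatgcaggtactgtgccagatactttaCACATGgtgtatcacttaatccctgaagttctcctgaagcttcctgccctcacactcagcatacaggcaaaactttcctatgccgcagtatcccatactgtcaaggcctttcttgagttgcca
Peak B: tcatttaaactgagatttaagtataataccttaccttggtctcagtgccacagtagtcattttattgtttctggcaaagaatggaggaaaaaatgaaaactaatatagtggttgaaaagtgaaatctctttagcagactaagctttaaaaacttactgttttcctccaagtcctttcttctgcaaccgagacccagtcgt
Peak A holds a single E-box, CACATG at bases 133760376 to 133760381, 19 bp from its center on the side away from Tnmd. Peak B holds no CANNTG at all.

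**Figure D1:**
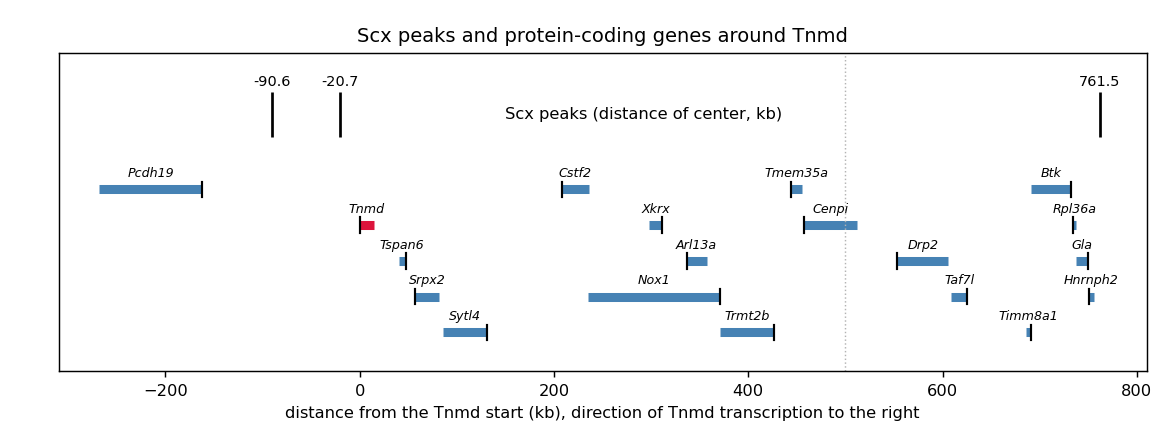
The horizontal axis gives the distance from the Tnmd start in kb, with the direction of Tnmd transcription to the right. Vertical black lines are centers of Scx peaks, colored bars are protein-coding genes with a black tick at their start (Tnmd in red), stacked only to keep their names apart, and the dotted line marks 500 kb downstream. The peaks at 90.6 and 20.7 kb upstream lie between Pcdh19 and Tnmd, and the next one stands at 761.5 kb downstream.

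In Scx-GFP+ cells Tnmd had 134.7 FPKM in control samples and 13.8 FPKM in Scx null samples. FPKM counts fragments, scaled to the length of the transcript and to the number of mapped fragments of the library, and both values are the authors' means of a group. Tnmd in Scx null cells was thus 10.3% of its control level, a 9.73-fold lower mean or a log2 ratio of -3.28. The table gives group means without values of single samples or their spread, so the overlap of the groups cannot be given. The paper separately reports Tnmd as nearly absent from Scx-/- forelimbs by in situ hybridization, and reduced by quantitative RT-PCR at E13.5 and E15.5. The authors' own comparison in that table was not used and no other test was run, and the words lower and higher in all that follows describe means alone. In samples of sorted cells, fewer cells that express a gene and less RNA per cell cannot be told apart.

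Tnmd stood 288th from the top of the 12121 genes with a mean over both groups of at least 1 FPKM in control cells, above 97.6% of them. In Scx null cells it stood 4248th, above 65.0%. Its transcripts were therefore still listed at a middle level in cells without Scx, and not at 0.

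Of the 12121 genes, 17 had a Scx null mean at least 2-fold lower than control (0.140%) and 8 at least 2-fold higher (0.0660%). Tnmd was the lowest of them all by ratio. The central 95% of the log2 ratios ran from -0.34 to 0.36, with a median of 0.00. After Tnmd came Xist, the long noncoding RNA of X inactivation, with 174.7 FPKM in control and 24.9 FPKM in Scx null cells, and its antisense gene Tsix, with 31.8 and 6.67 FPKM. Xist and Tsix overlap, and no source used here says whether the counting used strand, so their reads may be shared. Fmod, which encodes the collagen-binding proteoglycan fibromodulin, was the next lowest gene with more than 10 FPKM in control cells, with 84.7 FPKM in control and 22.3 FPKM in Scx null cells.

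**Figure D2:**
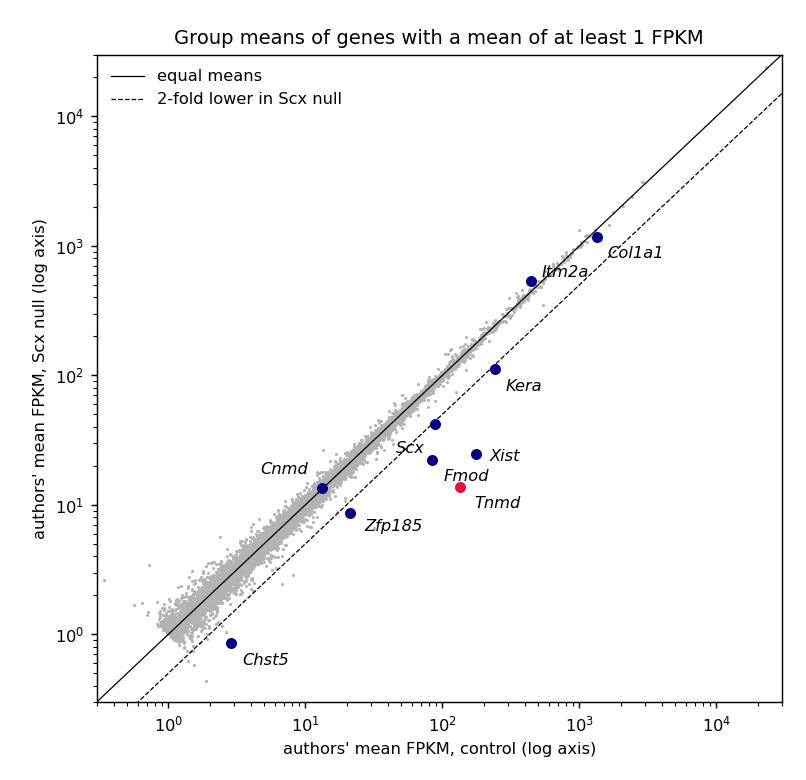
Each gray point is 1 of 12121 genes, placed by the authors' mean FPKM in control cells on the horizontal axis and in Scx null cells on the vertical axis, both logarithmic. The solid line marks equal means and the dashed line a 2-fold lower mean in Scx null cells. Tnmd (red) lies farthest below the dashed line, at 134.7 against 13.8 FPKM, and Xist and Fmod lie nearest to it, while Itm2a and Cnmd, which also encode BRICHOS proteins, lie near the solid line.

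Genes that were as abundant as Tnmd in control cells gave a narrow range of ratios. A control mean within 2-fold of that of Tnmd, from 67.4 to 261.6 FPKM, was found for 519 genes with Tnmd included, and 513 of them differed by less than 1.5-fold between the group means. Their log2 ratios had a median of -0.01 and a central 95% from -0.24 to 0.24. Tnmd had the lowest ratio of the 519. Only 5 were at least 2-fold lower (0.963%), and the others were Xist, Fmod, Kera and Scx. Kera, which encodes the keratan sulfate proteoglycan keratocan, had 242.5 FPKM in control and 111.6 FPKM in Scx null cells, a log2 ratio of -1.12. The sixth in this order, Rpl29, which encodes a ribosomal protein, had a log2 ratio of -0.75. No gene of this set was 2-fold higher, and the highest was Aspn, encoding the proteoglycan asporin, at 103.6 and 146.8 FPKM, or 0.50 on the log2 scale.

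The genes closest to Tnmd in control level had nearly equal means in the 2 groups. Chchd2, which encodes a mitochondrial protein, had 135.1 FPKM in control and 134.5 FPKM in Scx null cells. Mmp2, a matrix metalloproteinase gene, had 137.1 and 135.1 FPKM, and Itgb1, encoding integrin beta 1, had 132.2 and 128.9 FPKM. Dlk1, encoding a membrane protein related to Notch ligands, was the most different of the 10 closest, with 135.4 and 166.1 FPKM. These 4 were picked from the 10 closest after their values were seen.

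**Figure D3:**
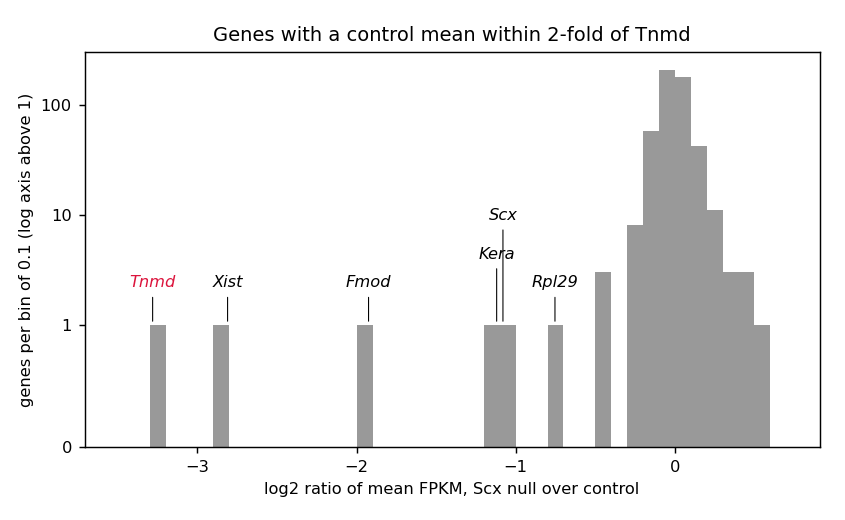
The bars count the 519 genes with a control mean within 2-fold of Tnmd by their log2 ratio of mean FPKM, Scx null over control, in bins of 0.1, and the vertical axis is logarithmic above 1. Most genes lie near 0, and Tnmd stands at -3.28, apart from Xist at -2.81, Fmod at -1.92, Kera at -1.12 and Scx at -1.08.

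Scx, the gene that was knocked out, had 88.6 FPKM in control and 41.9 FPKM in Scx null cells, 47.3% of the control mean. The knockout allele leaves untranslated sequence of Scx in place. The group means do not show which part of Scx the fragments came from, so the remaining value does not measure intact Scx RNA. With a probe for the coding sequence, the paper reports Scx mRNA as completely absent from Scx-/- embryos by in situ hybridization. The tendon markers Scx, Mkx, Fmod, Kera, Thbs4 and Col1a1 were all present in the sorted cells. Their levels summed to 1837 FPKM in control cells and 1420 FPKM in Scx null cells. Most of this sum was Col1a1, at 1333 and 1178 FPKM. All 6 had lower Scx null means, which is a description alone. Scx is the deleted gene, and the study named Mkx, Fmod, Kera and Thbs4 as lower from these same samples. In the wider list of 26 tendon genes below, 17 were lower and 9 higher in Scx null cells. Markers of other tissues were present as well. In control and Scx null cells, 5 muscle markers summed to 351.7 and 386.7 FPKM, and 6 blood and macrophage markers to 55.2 and 71.0 FPKM. Most of the muscle sum was Actc1, at 291.9 and 322.7 FPKM, and 1 of the 5 muscle markers was lower in Scx null cells. The 5 cartilage markers summed to 110.0 and 87.4 FPKM, of which Col2a1 alone had 78.3 and 57.1 FPKM. Only 2 of these 5 were lower in Scx null cells. Blood and macrophage markers were higher in Scx null cells in 6 of 6 cases, and epidermal markers in 3 of 3 (19.5 and 23.4 FPKM summed). Bone markers were higher in 3 of 3 cases (7.03 and 8.77 FPKM summed), Schwann cell markers in 3 of 3 (2.91 and 3.46) and perivascular markers in 2 of 2 (26.5 and 27.5). Endothelial markers, 2 of 3 of which were higher, summed to 15.1 FPKM in control cells and 1.03 times that level in Scx null cells, and joint markers, 1 of 2 of which was higher, summed to 8.33 and 9.33 FPKM. No marker of any list was at 0, and the part of the mixture of cells in the Tnmd difference was not tested.

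Tnmd was compared with a list of 25 other genes, most of them known from tendon and its matrix. Htra3, Ssc5d and Zfp185 were on the list because the study named them from these same samples. Of these 26 genes, 5 were at least 2-fold lower in Scx null cells (19.2%, beside 0.140% of all genes) and 0 were at least 2-fold higher. Tnmd itself, Scx, Fmod and Kera made up 4 of the 5, and since the list was drawn up with these results known, the count is a description. The remaining one was Zfp185, which encodes an actin-associated LIM domain protein, with 21.2 FPKM in control and 8.69 FPKM in Scx null cells, a log2 ratio of -1.29. Over the list 17 genes were lower and 9 higher in Scx null cells, with a median log2 ratio of -0.09, or -0.06 without Tnmd and Scx.

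The 6 genes of this list with the highest control means had Scx null means close to those of control. Col1a1 and Col1a2, which encode the chains of type I collagen, had 1333 and 1249 FPKM in control and 1178 and 1153 FPKM in Scx null cells. Col3a1, the type III collagen gene, was slightly higher, with 1094 FPKM in control and 1189 FPKM in Scx null cells. The small proteoglycan genes Dcn, Bgn and Lum had 668.2, 626.7 and 366.4 FPKM in control cells and 649.1, 633.4 and 386.7 FPKM in Scx null cells. In control cells the mean of Tnmd was above that of Fmod and Scx and below those of Kera and these 6 genes, and in Scx null cells it was below all of them.

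**Figure D4:**
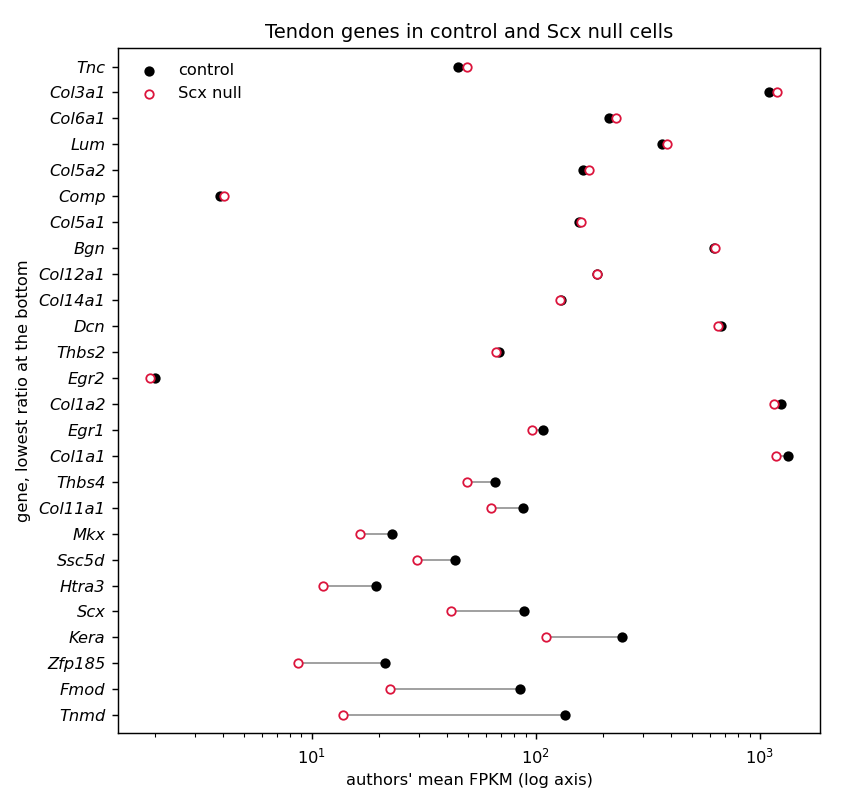
Each row is 1 of 26 tendon genes, with the authors' mean FPKM on a logarithmic axis for control (black) and Scx null cells (red, open), ordered by ratio with the lowest at the bottom. Tnmd has the longest line, from 134.7 to 13.8 FPKM, followed by Fmod, Zfp185, Kera and Scx, and the collagen and small proteoglycan genes of highest level have short lines.

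Of 15 genes for factors that act with or upstream of Scx, or that pair with bHLH proteins, Scx alone was 2-fold lower. Scx is the gene that was knocked out, and 0.140% of all genes of at least 1 FPKM were that much lower. Mkx, which encodes the tendon homeodomain factor Mohawk, had 22.9 FPKM in control and 16.5 FPKM in Scx null cells, a log2 ratio of -0.48. Egr1, an early growth response factor gene, had 107.7 and 96.5 FPKM. The genes of the broadly expressed bHLH partners Tcf4 and Tcf12 had 88.5 and 75.5 FPKM in control and 85.4 and 77.6 FPKM in Scx null cells. Tgfbr2 and Tgfbr1, the genes of the TGF-beta receptors, had 52.3 and 23.2 FPKM in control and 49.6 and 24.5 FPKM in Scx null cells. Nfatc3, an NFAT factor gene, had 33.9 and 35.2 FPKM.

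The other genes of proteins with a BRICHOS domain did not share the low Scx null mean of Tnmd. Cnmd, which encodes chondromodulin of cartilage, the closest relative of tenomodulin, had 13.2 FPKM in control and 13.4 FPKM in Scx null cells. The level of Tnmd in Scx null cells was thus close to that of Cnmd, from which it was far apart in control cells. Itm2a, which is X-linked like Tnmd and encodes an integral membrane protein, had 441.6 and 538.6 FPKM, a log2 ratio of 0.29. Itm2b and Itm2c, its paralogs, had 111.7 and 50.1 FPKM in control and 118.2 and 49.1 FPKM in Scx null cells, and Bricd5 had 1.02 and 1.03 FPKM. Sftpc, Gkn1, Gkn2 and Gkn3 were not among the genes listed.

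The 5 genes whose pair of means lay nearest to that of Tnmd, by the Euclidean distance of the 2 log2 group means, were Xist at a distance of 0.93, Fmod at 0.96, Scx at 1.71, Ssc5d at 1.97 and C1qtnf3 at 2.05. Ssc5d, a scavenger receptor cysteine-rich protein gene, had 43.4 FPKM in control and 29.6 FPKM in Scx null cells. C1qtnf3, which encodes a secreted C1q-related protein, had 42.7 and 31.9 FPKM. The distance rests on 2 points a gene, the control and the Scx null mean.

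Since Tnmd and Xist are both X-linked, the other genes of the chromosome were set beside them. Of 436 X-linked genes with a mean of at least 1 FPKM, 4 were at least 2-fold lower in Scx null cells (0.917%), namely Tnmd, Xist, Tsix and Zfp185, and 0 were at least 2-fold higher. The X-linked genes had a median log2 ratio of 0.04 and a central 95% from -0.47 to 0.39, whereas 11598 autosomal genes had a median of -0.00 with 13 at least 2-fold lower. The 5 X-linked genes known to escape X inactivation, Kdm5c, Kdm6a, Ddx3x, Eif2s3x and Pbdc1, were all slightly lower in Scx null cells. Eif2s3x, encoding a translation initiation factor subunit, had the largest difference of these, with 17.9 and 14.6 FPKM, and Ddx3x, an RNA helicase gene, had 144.0 and 126.8 FPKM. Kdm5c and Kdm6a, the histone demethylase genes, had 11.6 and 18.8 FPKM in control and 10.5 and 17.2 FPKM in Scx null cells, and Pbdc1 had 14.9 FPKM in control cells and a log2 ratio of -0.13. The labels give no sex for the embryos. The authors discarded Y-linked genes and applied a correction, RUVs, to account for the contribution of sex to expression. Whether these means precede that correction is not stated. A difference of sex between the groups therefore cannot be told apart from one of genotype in these means. Centered on the median of the X-linked genes, the log2 ratio of Tnmd was -3.32.

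**Figure D5:**
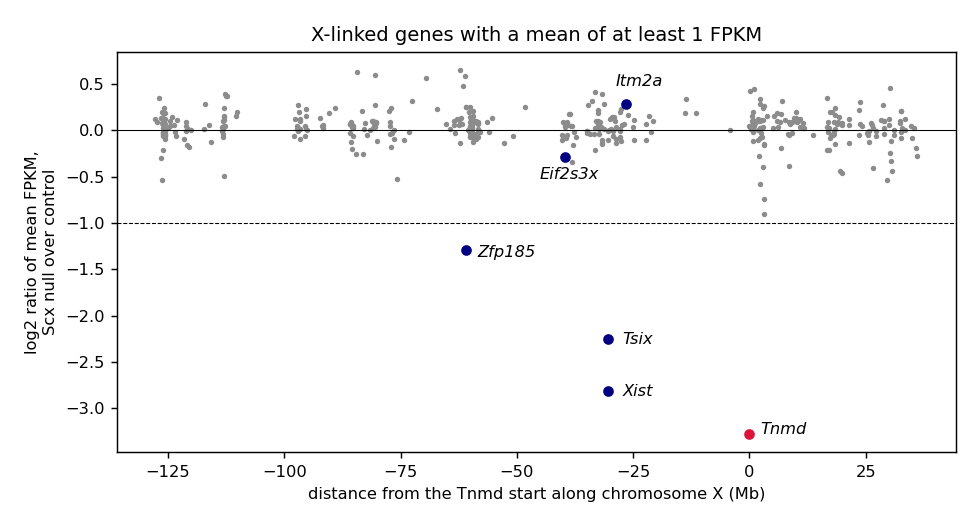
Each point is 1 of 436 X-linked genes, placed by the distance of its start from that of Tnmd in Mb and by its log2 ratio of mean FPKM, Scx null over control. The solid line marks 0 and the dashed line a 2-fold lower mean. Tnmd at -3.28 stands alone at its position, and Xist, Tsix and Zfp185 lie far from it along the chromosome.

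The genes of at least 1 FPKM beside Tnmd had Scx null means slightly above those of control. Within 500 kb, 11 other protein-coding genes have their start, 10 of which were listed and 7 of which had a mean of at least 1 FPKM. The log2 ratios of these 7 ran from 0.01 to 0.43, and none was 2-fold lower or higher. Their median was 0.04, beside 0.04 over the 436 X-linked genes. Pcdh19, a protocadherin gene that shares the peak-bearing intergenic stretch with Tnmd and is transcribed away from it, had 7.25 FPKM in control and 7.47 FPKM in Scx null cells. Tspan6, a tetraspanin gene and the first start downstream at 47.4 kb, had 39.4 and 40.5 FPKM. Srpx2, a sushi repeat protein gene, was the highest by ratio, with 2.95 and 3.97 FPKM. Cstf2, encoding an RNA cleavage factor subunit, had 8.73 and 8.98 FPKM, Trmt2b had 5.36 and 5.44, Tmem35a had 3.70 and 3.74, and Cenpi, a centromere protein gene, had 4.35 and 4.67. Sytl4, Xkrx and Nox1 were under 1 FPKM in both groups, with log2 ratios of 0.38, 0.43 and -0.01, and Arl13a was not listed. Within 1000 kb, 17 genes of at least 1 FPKM had log2 ratios from -0.12 to 0.44.

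The 2 peaks upstream of Tnmd lie 69.8 kb apart. The gene start nearest to peak B is that of Tnmd, followed by Tspan6 at 68.2 kb, whereas the start nearest to peak A is that of Pcdh19 at 71.4 kb. Each gene was also given a domain of 5 kb before its start and 1 kb after it, which was extended to the domains of its neighbors, by at most 1000 kb. Under this basal plus extension rule both peaks fell in the domain of Tnmd, 203.4 kb long, and also in that of Pcdh19, whose means were nearly equal between the groups.

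The region is otherwise sparse in listed peaks. The previous peak on chromosome X lies 14217 kb before peak A, a longer stretch than any other of the 123 between neighboring peaks of the chromosome and 8.31% of its length. This stretch holds the starts of 24 protein-coding genes, 5 of which had a mean of at least 1 FPKM. The next peak downstream lies 782.3 kb after peak B. Chromosome X held 124 peaks, or 0.725 per Mb, against 4.86 per Mb on the autosomes, the lowest of which was chromosome 7 at 4.27 per Mb. How far this difference comes from the mapping or the calling of peaks was not tested.

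Against other genes, the standing of Tnmd by number of peaks depended on the distance counted. Of 11689 protein-coding genes with a mean of at least 1 FPKM, 92.1% had 2 or more peaks within 500 kb and the median was 6, above the 2 of Tnmd. Of 418 such X-linked genes, 36.6% had 2 or more, the median was 1, and 34.2% had none. Within 100 kb, where both Tnmd peaks lie, 41.4% of all these genes and 5.50% of the X-linked ones had 2 or more, and the medians were 1 and 0, below the 2 of Tnmd. A peak nearer than the 20.7 kb of Tnmd was found for 35.1% of the genes and for 8.13% of the X-linked ones. The 25 other tendon genes had a median of 10 peaks within 500 kb, ranging from 2 for Zfp185, also X-linked, to 16 for Col5a1, and 15 of them had a nearer peak than Tnmd. The 4 of them with at least 2-fold lower means, Fmod, Zfp185, Scx and Kera, had their nearest peak within 5.14 kb of the start. These 4 were picked by their means in these same data. The share of all genes with a peak that near was not counted, so no link to the lower means is drawn. Of the 13 protein-coding genes at least 2-fold lower, Tnmd included, 6 had a nearer peak than Tnmd, beside 35.1% of the 11689 genes.

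The sequences of both peaks were searched on both strands for the core E-box of Scx, which was taken as CAGATG with its reverse complement CATCTG or as either of the palindromes CAGCTG and CATATG, for any CANNTG (a set that includes the core), and for TGGAAA, the core of the NFAT motif. Neither peak held a core E-box or TGGAAA within its 200 bp. Over all 12097 peaks, 60.3% held a core E-box, 38.9% held CAGATG or CATCTG, 78.4% held CANNTG and 31.5% held TGGAAA. The CACATG of peak A, or its reverse complement CATGTG, was found in 15.2% of peaks. Peak B was among the 2616 peaks without any CANNTG, and among 14 of the 124 peaks of chromosome X. The absence of a match says only that these letters are not in these 200 bp. Peak B had a GC content of 35.5%, and 2.64% of all peaks had a lower one, whereas peak A had 44.0%, beside a median of 49.5% over all peaks. Repeats were marked in 22.5% of the bases of peak B and in 0% of those of peak A.

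In the 500 bp around each center the peaks differed. Within it, peak A had 2 matches to CATCTG, the reverse complement of CAGATG, 118 and 180 bp from its center on the side toward Tnmd, together with 3 matches to TGGAAA. At least 2 matches to CAGATG or CATCTG were present in 17.6% of all such windows. TGGAAA was present in 49.1% of them, with 3 or more matches in 5.95%. Peak B still had no core E-box in 500 bp, as did 26.8% of all peaks, and had 1 CAATTG and 1 TGGAAA. The stretches around the matches beside peak A, chrX:133760501-133760530 and chrX:133760563-133760592, are shown with CATCTG in capitals, since they are the only core E-boxes found close to either peak.
Beside peak A, 118 bp: gtagcagccagtCATCTGtcgaattcatct
Beside peak A, 180 bp: atgctgtgtagaCATCTGtaaactcctaca

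No listed peak overlaps the promoter of Tnmd. The table lists only regions past the authors' threshold, so weaker binding there was not analysed here. Its absence from the list does not show that Scx was absent. The paper reports a minor Scx peak at the basal promoter of Tnmd, enriched over input but short of that threshold. The promoter table of RefSeq places the start 28 bp downstream of the GENCODE start. The part of its promoter window before the GENCODE start, chrX:133850758-133850979, is shown with its only match, TGGAAA at bases 133850778 to 133850783, in capitals. The complete window held no CANNTG, while 72.1% of 27025 promoters of that table held one, 33.2% held a core E-box and 21.5% held TGGAAA.
Promoter: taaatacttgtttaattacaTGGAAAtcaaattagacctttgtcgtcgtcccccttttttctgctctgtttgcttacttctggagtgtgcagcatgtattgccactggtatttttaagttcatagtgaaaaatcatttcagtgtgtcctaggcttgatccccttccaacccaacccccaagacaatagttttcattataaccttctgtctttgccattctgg
Farther upstream, within 1000 bp of the GENCODE start, there was 1 core E-box, CAGATG at 613 bp before the start, and 17 bp after it a CAAATG. Of 21911 such upstream windows of protein-coding genes, 47.7% held CAGATG or CATCTG and 72.6% a core E-box. The stretch with both elements, chrX:133850347-133850409, is shown with them in capitals, and a CAATTG at 378 bp before the start completes the E-boxes of this window.
Upstream stretch: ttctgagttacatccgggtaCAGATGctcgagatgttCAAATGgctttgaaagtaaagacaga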

How the data were processed

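RNA was prepared from sorted Scx-GFP+ forelimb cells and sequenced. The submitters' processing notes name mm10, STAR 2.7.4, featureCounts of Subread, DESeq2, HOMER 4.11 and edgeR. In the paper's methods, the authors describe counting per gene, removal of Y-linked genes, correction with RUVs and a DESeq2 comparison. The deposited expression table gives the authors' mean FPKM of each group, and whether these means precede the correction is not stated. It also holds the authors' log2 fold change, p-value, FDR and a status column, which were not used. Values of single samples were not analysed here, so depth and precision per sample are unknown, and the annotation behind the counts, not given in the sources used here, is unknown as well. The planned fit on values of single samples was replaced by a description of the means.

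For ChIP-seq the authors describe libraries brought to equal depth, HOMER peaks merged over replicates, and an edgeR comparison of ChIP with input. The deposited peak table gives positions, a number per peak and no usable value per peak.

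Ratios of the deposited mean FPKM were taken without a pseudocount, over genes with a mean of at least 1 FPKM. Starts came from GENCODE M21, and 99.0% of symbols matched, 213 through a synonym. Distances run from peak center to gene start. Sequences and motifs were read from RefSeq GRCm38.p6 with Python 3.11.15, numpy 2.4.6, pandas 2.3.3 and pysam 0.24.0, and the counting steps were tested on simulated data. Genes named were Tnmd, Scx, Xist, genes starting within 500 kb, all BRICHOS and X-linked list members, the 5 nearest in level, and of the tendon and factor lists those past 2-fold and up to 6 others of highest control mean. Tsix, Zfp185 as an X-linked gene, Mkx among the factors, Rpl29, Aspn, Col5a1 and the genes of closest control level fall outside that rule and were named after their values were seen. The members and lists were chosen with earlier results of these data known.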

Additional observations from a re-analysis of the deposited data

How the results depend on the processing

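The log2 ratio of Tnmd was -3.27 with a pseudocount of 0.1 FPKM, -3.19 with 1 FPKM and -3.28 centered on the median of all genes. Its ratio was the lowest among genes within 1.5-fold or 3-fold of its control level and among all genes of at least 1 FPKM. With no filter on low values it was 6th of 15665 genes with both means above 0, behind C7, Slc36a2, Myf6, Morc1 and Gm6936, whose means were at most 0.236 FPKM. The count of 2 peaks also held within 100 and 250 kb, and was 3 within 1000 kb. The share of genes with at least as many peaks was 92.1% within 500 kb, 36.6% among X-linked genes and 41.4% within 100 kb. Peak A held 0 core E-boxes in 200 bp, 2 in 500 bp, and 1 match when any CANNTG was counted. At a 1.5-fold threshold 6 rather than 5 tendon genes were lower. No paired analysis was possible because the table holds group means only. For the same reason, leaving out replicates was not run, and a stricter peak threshold was not run because the table gives no fold, p-value or score that varies between peaks.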
